A study of Homo sapiens with 6 samples.

Results

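Attaching ubiquitin to a protein takes an activating enzyme (E1), a conjugating enzyme (E2) and a ligase (E3). The genes described here are those of the E2 enzymes (symbols starting with UBE2), of the cullins (CUL), which are the scaffolds of the largest family of ubiquitin ligases, and of the COP9 signalosome (COPS). The members were taken by symbol alone from the RefSeq table of GRCh38.p14. No measured value entered this rule, but it was chosen with earlier results of these data known. Of 19974 protein-coding genes in the table (chromosomes 1 to 22 and X), 53 are members, namely 36 UBE2, 8 CUL and 9 COPS genes. The cullin ligases are switched on when the ubiquitin-like protein NEDD8 is attached to the cullin, a step carried out by the E2 enzymes UBE2M and UBE2F. The COP9 signalosome takes NEDD8 off again. GABP is a transcription factor in which GABPA, an ETS family protein, contacts DNA, and a B subunit, GABPB1 or GABPB2, carries the activation domain. ETS proteins bind around a GGAA core, and GABP is known for promoters of widely expressed genes, often those that lack a TATA box.

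The binding of GABPA had been profiled with ChIP-seq in the melanoma cell line A-375, for which the labels give skin as the tissue. The 3 conditions were cells in which exon 2 of the GABP B1 subunit had been knocked out and TERT, the catalytic subunit of telomerase, then knocked in; cells with a knockout at ROSA26, labelled No1; and parental cells with no knockout. Edited cells were sorted and grown as clones, so each knockout line is 1 clone, and the B1 knockout, the TERT knock-in and the clone cannot be told apart. Each condition had 1 ChIP library, made with the same GABPA antibody, and 1 input library that was not analysed here. Because there was a single library for each condition, the conditions were not tested against each other. The p-values named below are those of single peaks within their own list. Peak lists carry no expression, so the cell type was not checked against markers.

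The deposited lists held 1660 peaks for the B1 knockout, 3857 for ROSA26 and 3024 for the parental cells. Fold enrichment was taken from the authors' lists and is the ratio of reads at a peak's summit (its highest point) to the local background. Folds describe a peak within its own list, whose medians were 5.81, 6.02 and 6.36 in that order. The reads at each summit were recovered from fold and −log10 p. The most common local background among the peaks was 9.86 reads in the B1 knockout, 14.2 in the ROSA26 and 15.4 in the parental library. This value is set by read depth and by fragment length at once, and single peaks can have a higher local background. A gene was called marked when at least 1 summit was no more than 1 kb from an end of its span. Where no peak was listed, the enrichment did not reach the caller's threshold, and binding may still have been present.

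Within 1 kb of a span end, most COP9 genes had a GABPA peak in the control lists. Most E2 and cullin genes had none there in any list. In all, 9 of the 53 members were marked in the B1 knockout (17.0%, exact 95% interval 8.07 to 29.8), 17 in ROSA26 (32.1%, 19.9 to 46.3) and 15 in the parental cells (28.3%, 16.8 to 42.3). Of all protein-coding genes, 9.32% were marked in the B1 knockout, 18.5% in ROSA26 and 15.5% in the parental list. Among COPS genes 4, 7 and 6 of 9 were marked in the B1 knockout, ROSA26 and parental lists, or 44.4% (13.7 to 78.8), 77.8% (39.99 to 97.2) and 66.7% (29.9 to 92.5). Among CUL genes 1, 3 and 3 of 8 were marked, and among UBE2 genes 4, 7 and 6 of 36, or 11.1% (3.11 to 26.1), 19.4% (8.19 to 36.0) and 16.7% (6.37 to 32.8). The intervals cover counting error over genes only, and the families were not tested against each other or against all genes.

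**Figure D1:**
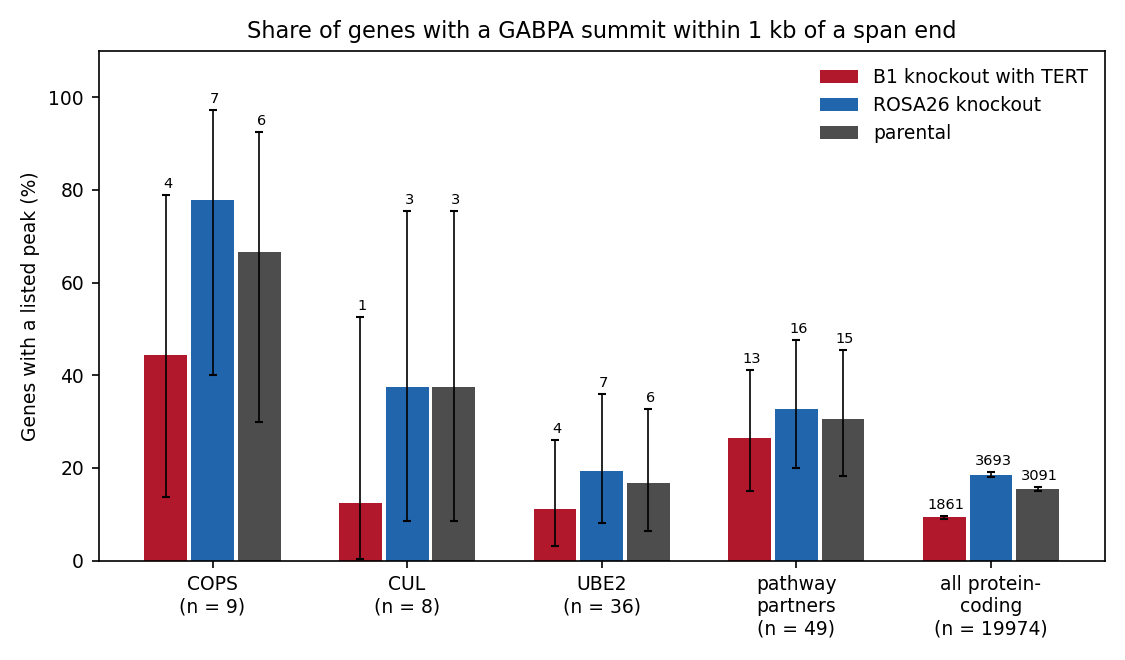
Share of genes with a GABPA summit within 1 kb of a span end (%, y axis) for COPS, CUL, UBE2, pathway partner and all protein-coding genes, in the B1 knockout, ROSA26 and parental lists from left to right. Bars give the share, error bars the exact 95% interval and the digits over each bar the number of genes. COPS bars stand at 44.4, 77.8 and 66.7%, and UBE2 bars at 11.1, 19.4 and 16.7%, beside 9.32, 18.5 and 15.5% of all genes.

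COPS2 carried the peak with the highest −log10 p of the group in each list. COPS2 (chromosome 15, 49122727 to 49155599) encodes a core subunit of the signalosome. Its peak had a fold of 19.2 with 248 reads at the summit in the B1 knockout, 16.2 with 386 reads in ROSA26, and 14.6 with 356 reads in the parental list. By −log10 p it stood in the top 1.20% of the B1 knockout list, the top 2.33% of the ROSA26 list and the top 3.01% of the parental list. The summits of the 3 lists fell within 19 bp of each other, 137, 123 and 118 bp upstream of the start of COPS2. They lay closer, at 38, 52 and 57 bp, to the start of GALK2, a sugar kinase gene on the opposite strand. The peak was thus near both starts and cannot be assigned to COPS2 alone.

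The other COPS genes differed in strength. COPS3 (chromosome 17, 17246616 to 17281246) had folds of 7.54, 8.44 and 7.51 in the B1 knockout, ROSA26 and parental lists, with 107, 193 and 164 reads. COPS9 (chromosome 2, 240126548 to 240136347), the smallest subunit, had folds of 5.58, 10.5 and 8.52 with 60, 159 and 140 reads. COPS7A (chromosome 12, 6724046 to 6731865) had folds of 3.17, 9.0 and 9.98 with 47, 272 and 230 reads. The COPS7A peak thus lay among the stronger peaks of both controls, in the top 18.3% of ROSA26 and the top 19.6% of parental peaks by −log10 p, and near the bottom of the B1 knockout list, at 95.8%.

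COPS5 (chromosome 8, 67043079 to 67062133), the catalytic subunit that cleaves NEDD8 from cullins, was marked in the controls alone, with a fold of 6.77 and 133 reads in ROSA26 and of 3.48 and 108 reads in the parental list. Its summits lay 182 and 212 bp outside the gene. COPS8 (chromosome 2, 237085889 to 237100474) was marked in ROSA26 alone, with a fold of 4.60 and 69 reads, 50 bp upstream of its start. COPS4 and COPS6 had no peak in any list. GPS1, the subunit whose symbol falls outside the naming rule, had folds of 5.68, 8.87 and 4.90 in the B1 knockout, ROSA26 and parental lists. The parental GPS1 summit lay 998 bp from the span end, at the edge of the reach, beside RFNG.

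COPS7B (chromosome 2, 231781671 to 231809253), the paralog of COPS7A, had peaks at separate starts. The outer peak, between COPS7B and PDE6D, had folds of 4.91 and 3.33 with 81 and 54 reads in ROSA26 and the parental cells, and was not listed in the B1 knockout. A second peak lay at a RefSeq start 4774 bp inside the span end, beyond the reach of the naming rule. This inner peak had a fold of 4.72 with 52 reads in the B1 knockout, 9.20 with 160 reads in ROSA26 and 8.36 with 140 reads in the parental list. In each control the inner peak had more reads than the outer peak, and it was the COPS7B peak listed in all 3 libraries.

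**Figure D2:**
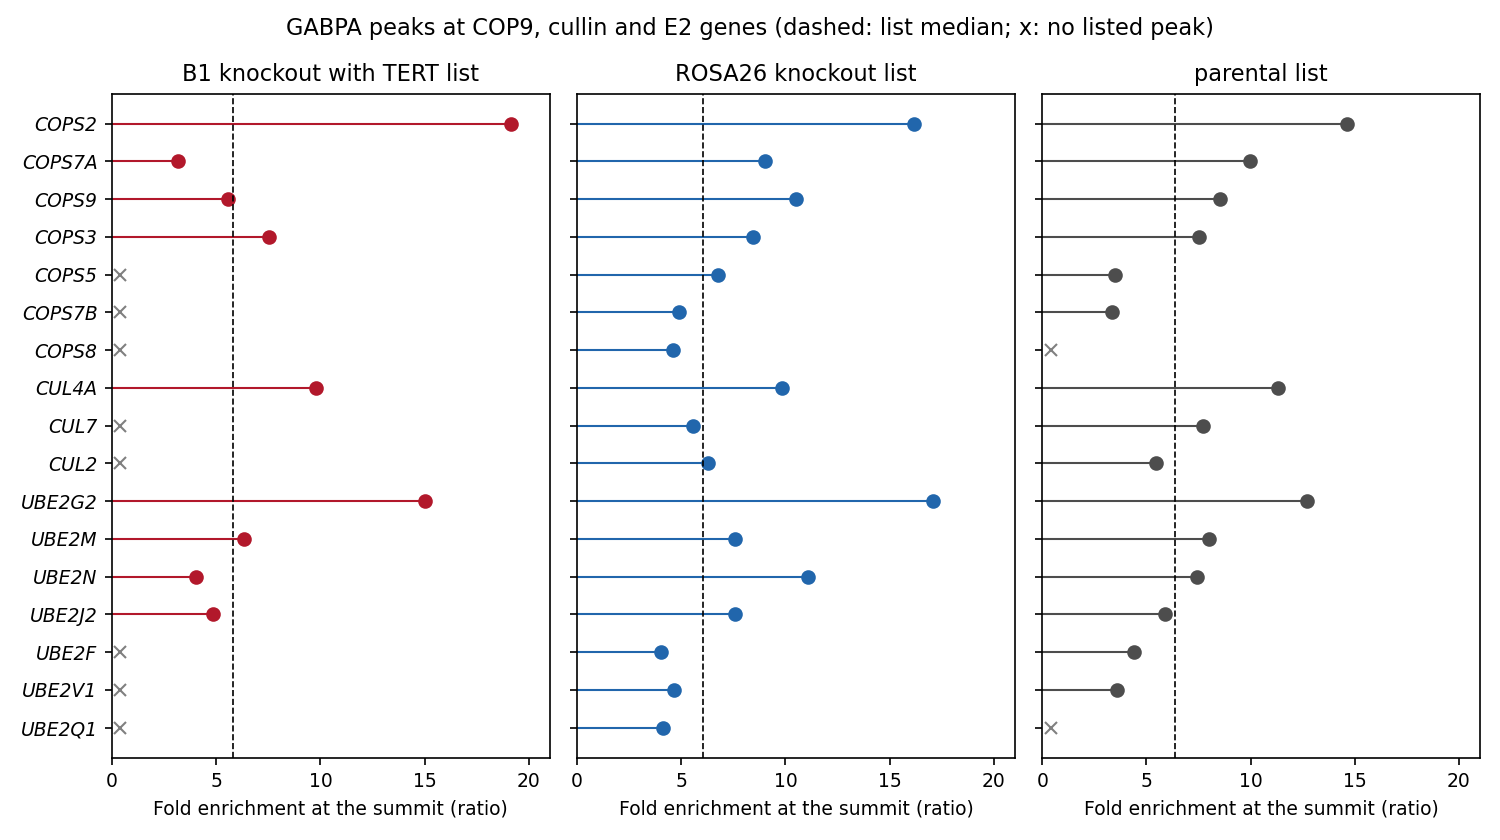
Fold enrichment at the summit (ratio, x axis) of the 17 marked members in the B1 knockout, ROSA26 and parental lists, 1 panel each from left to right. Dots give the strongest peak within 1 kb of a span end, dashed lines the list median, and crosses a gene with no listed peak. Crosses stand at 8 genes in the B1 knockout panel, none in the ROSA26 panel and 2 in the parental panel.

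Among the cullins, CUL4A, the scaffold of ligases built with DDB1, was the gene marked in all 3 lists. CUL4A (chromosome 13, 113208193 to 113267108) had folds of 9.80, 9.83 and 11.3 with 136, 216 and 249 reads in the B1 knockout, ROSA26 and parental lists. The summits fell within 8 bp of each other, 521, 513 and 517 bp inside the span, where RefSeq places another CUL4A start. They also lay 45, 37 and 41 bp upstream of the start of PCID2, which runs the other way on the opposite strand.

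CUL7 and CUL2 were marked in both controls and not in the B1 knockout. CUL7 (chromosome 6, 43037617 to 43053851) had folds of 5.57 and 7.74 with 122 and 127 reads in ROSA26 and the parental cells, and shared the peak with MRPL2, a mitochondrial ribosome gene whose nearer end lay 134 and 150 bp away. CUL2 (chromosome 10, 35008551 to 35127006), the scaffold of the VHL ligase, had folds of 6.28 and 5.44 with 104 and 89 reads. Its summits lay 305 and 311 bp inside the gene and 145 and 151 bp from CREM, a transcription factor gene. The nearest CUL2 start among the RefSeq promoter windows used below lay 36392 bp inside the same span end, far from the peak. CUL2 was thus marked by its span end only, and the peak was not at a CUL2 start with a window. CUL1, CUL3, CUL4B, CUL5 and CUL9 were unmarked by this rule. For CUL4B, the X-linked paralog of CUL4A, a peak lay at an internal RefSeq start 14570 bp from the span end in ROSA26 (fold 4.97, 86 reads) and the parental list (4.84, 79 reads), and none there in the B1 knockout.

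Of the E2 enzymes, UBE2G2 had the highest fold in each list. UBE2G2 (chromosome 21, 44768580 to 44801820) serves the degradation of misfolded proteins of the endoplasmic reticulum. Its folds were 15.0, 17.1 and 12.7 with 163, 259 and 209 reads in the B1 knockout, ROSA26 and parental lists. UBE2J2 (chromosome 1, 1253912 to 1273854), a membrane-anchored E2 of the same pathway, had folds of 4.84, 7.59 and 5.90 with 67, 155 and 114 reads. Their paralogs UBE2G1 and UBE2J1 were not marked in any list. UBE2N (chromosome 12, 93405684 to 93441947), which builds ubiquitin chains linked through lysine 63, had folds of 4.01, 11.1 and 7.41 with 64, 213 and 156 reads. UBE2V1 (chromosome 20, 50081124 to 50115957), the inactive variant that pairs with UBE2N, had folds of 4.67 and 3.61 with 179 and 135 reads in ROSA26 and the parental cells, over a high local background of 37.6 and 36.5 reads, and no B1 knockout peak.

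The E2 enzymes for NEDD8 were marked more weakly or from a neighbour. UBE2F (chromosome 2, 237967014 to 238042782) had folds of 4.01 and 4.42 with 60 and 72 reads in ROSA26 and the parental cells and no B1 knockout peak. UBE2M (chromosome 19, 58555712 to 58558611) was called in all 3 lists with folds of 6.35, 7.56 and 8.0 and 80, 235 and 222 reads. That peak lay 691, 713 and 699 bp beyond the far end of UBE2M and 84, 106 and 92 bp inside CHMP2A, an endosomal sorting gene, whose RefSeq start is there. On the start side of UBE2M a separate and stronger peak (folds 6.81, 12.9 and 12.2) lay 1081, 1065 and 1084 bp upstream, just past the 1 kb reach. UBE2Q1 (chromosome 1, 154548577 to 154558662) was marked in ROSA26 alone (fold 4.11, 101 reads). UBE2L6, the E2 of the ubiquitin-like protein ISG15, was unmarked.

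The remaining E2 genes had no peak within reach. These 29 genes include all of the UBE2D and UBE2E families, broad partners of many ligases, the RAD6 genes UBE2A and UBE2B, and the mitotic E2 genes UBE2C and UBE2S. UBE2V1P16, which the table lists as protein-coding, was 1 of them. A peak lay at an internal start of UBE2D3 in ROSA26 (fold 6.05, 91 reads) and the parental list (4.43, 76 reads) and not in the B1 knockout. The peak nearest UBE2B was 4383, 4339 and 4365 bp outside the gene, inside CDKL3, in the B1 knockout, ROSA26 and parental lists (folds 6.28, 13.2 and 9.25). A peak 2786, 2777 and 2785 bp beyond UBE2Q2 lay 14, 23 and 15 bp from an end of FBXO22, an F-box gene. In ROSA26 a summit lay inside UBE2V2, 10928 bp from its end (fold 4.26). UBE2R2, and its paralog CDC34 that also serves cullin ligases, were unmarked.

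Summits of the members lay about as near to an end of the gene span as those of all marked genes, and moved by at most 55 bp between libraries. Of the marked members, 7 of 9 in the B1 knockout, 13 of 17 in ROSA26 and 11 of 15 in the parental list had the summit within 200 bp of a span end, beside 78.8, 73.9 and 75.7% of all marked genes in the same lists. Every marked gene has a summit within 1 kb by the rule. Where a member was marked in more than 1 list, its summits spread by 6 bp at CUL2 and COPS7B up to 55 bp at COPS7A. A neighbouring protein-coding gene shared the peak for 3 of 9, 6 of 17 and 6 of 15 marked members, against 46.6, 42.2 and 43.5% of all marked genes in the B1 knockout, ROSA26 and parental lists.

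**Figure D3:**
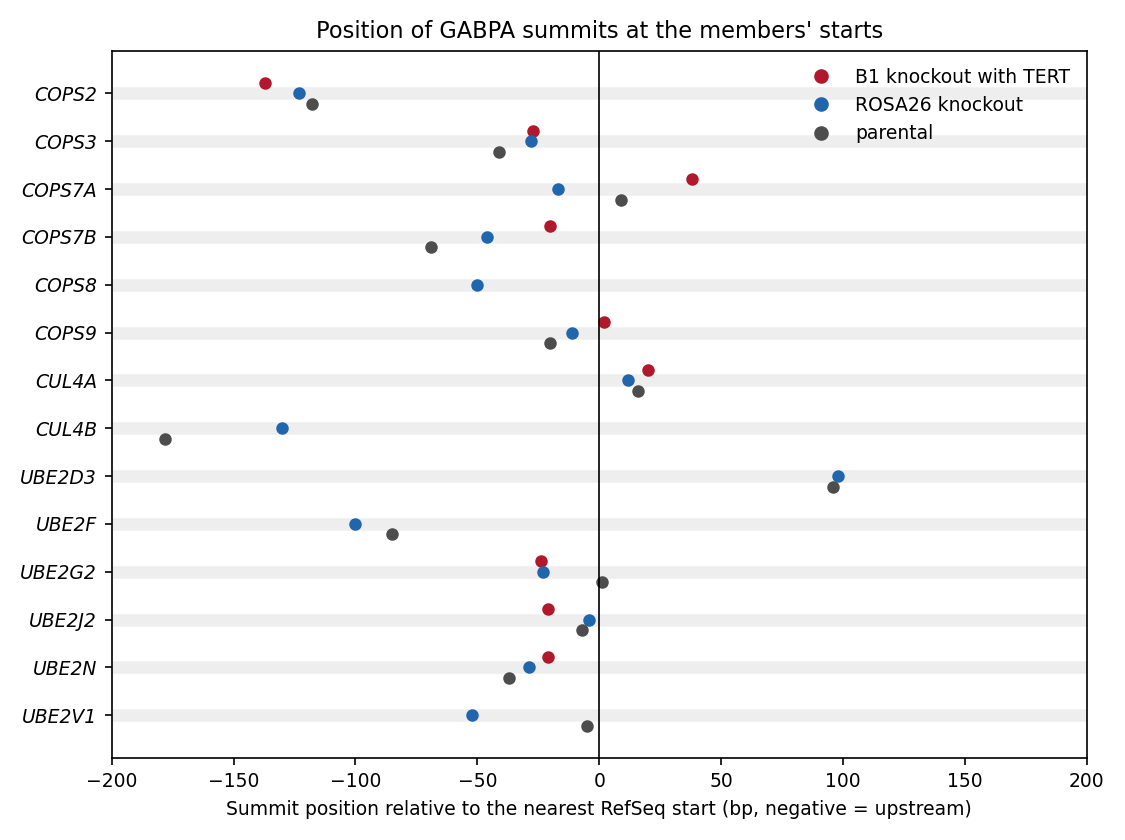
Position of the strongest summit within 1 kb of a RefSeq start (bp from that start, negative is upstream, x axis) for the 14 members that have one, with B1 knockout, ROSA26 and parental points from top to bottom in each row. COPS7B, CUL4B and UBE2D3 are shown at their internal starts. All points lie between 178 bp upstream (CUL4B, parental) and 98 bp downstream (UBE2D3, ROSA26).

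The promoter windows under the summits were searched for an ETS motif. RefSeq windows of GRCh38.p14, from 250 bases before a start to 50 after it, were matched by gene for 43 of the 53 members. The motif CCGGAAG was searched on both strands. It was in 12.8% of all 22132 windows of protein-coding genes and in 65.5% of the 2076 windows that held the parental summit of a marked gene. For the members it was in 8 of the 11 such windows. The exceptions were COPS2, COPS3 and the outer COPS7B start. The shorter GGAAG was in 10 of the 11, beside 73.7% of all windows and 96.2% of those holding the parental summit of a marked gene. The longer CCGGAAGT was in 4 of the 11, beside 5.35% of all windows and 38.1% of those holding such a summit. The bare GGAA core was in 11 of the 11, but also in 95.2% of all windows and 99.8% of those holding the parental summit of a marked gene. CCGGAAGT contains CCGGAAG, which contains GGAAG and GGAA, so the counts are nested.

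Below, the bases around the parental summit of chosen members are given on the strand of the gene, 5′ to 3′. Each runs at most 80 bases to either side of the summit and stops 30 bases into the transcript or at the edge of the window. Capitals mark GGAAG or its reverse complement CTTCC. UBE2G2 and COPS9 are shown because they hold 2 copies of CCGGAAG each, and COPS7A, UBE2N and CUL4A because they hold 1 copy.
UBE2G2 (chr21:44801791-44801899, minus strand): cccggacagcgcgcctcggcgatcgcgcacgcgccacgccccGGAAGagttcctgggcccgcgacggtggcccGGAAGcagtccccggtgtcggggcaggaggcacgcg
COPS9 (chr2:240136276-240136405, minus strand): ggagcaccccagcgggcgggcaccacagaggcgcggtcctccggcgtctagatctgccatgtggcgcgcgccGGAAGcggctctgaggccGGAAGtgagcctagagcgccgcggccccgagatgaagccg
COPS7A (chr12:6723975-6724075, plus strand): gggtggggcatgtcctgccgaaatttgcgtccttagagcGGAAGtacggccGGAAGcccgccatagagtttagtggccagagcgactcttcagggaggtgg
UBE2N (chr12:93441918-93442064, minus strand): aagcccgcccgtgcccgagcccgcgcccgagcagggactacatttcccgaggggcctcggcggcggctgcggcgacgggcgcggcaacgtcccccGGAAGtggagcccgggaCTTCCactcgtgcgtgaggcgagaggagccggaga
CUL4A (chr13:113208630-113208723, plus strand): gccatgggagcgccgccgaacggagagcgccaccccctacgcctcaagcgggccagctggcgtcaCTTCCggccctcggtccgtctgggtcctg

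In UBE2G2 the copies start 39 and 8 bases before the gene start, 31 bp apart, and in COPS9 they start 30 and 12 bases before the start used here, 18 bp apart. The motif begins 22 bases before the start in COPS7A, 24 before it in UBE2N and 20 before it in UBE2J2, and 1 base after it, on the opposite strand, in CUL4A. The next set shows the promoters that had a peak without CCGGAAG in this stretch, COPS2, COPS3, UBE2F, UBE2V1 and the outer start of COPS7B, with the inner start of COPS7B for comparison.
COPS2 (chr15:49155637-49155797, minus strand): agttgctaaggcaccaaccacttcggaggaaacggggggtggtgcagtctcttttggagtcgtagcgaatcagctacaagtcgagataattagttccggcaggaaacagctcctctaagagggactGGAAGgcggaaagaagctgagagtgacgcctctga
COPS3 (chr17:17281217-17281367, minus strand): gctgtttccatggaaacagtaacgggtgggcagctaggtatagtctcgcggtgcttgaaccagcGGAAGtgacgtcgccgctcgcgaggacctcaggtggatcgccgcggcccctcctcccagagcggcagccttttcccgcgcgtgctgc
UBE2F (chr2:237966849-237967009, plus strand): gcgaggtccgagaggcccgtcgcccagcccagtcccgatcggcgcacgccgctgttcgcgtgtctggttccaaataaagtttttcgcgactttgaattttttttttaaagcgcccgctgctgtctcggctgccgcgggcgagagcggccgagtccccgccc
UBE2V1 (chr20:50115928-50116042, minus strand): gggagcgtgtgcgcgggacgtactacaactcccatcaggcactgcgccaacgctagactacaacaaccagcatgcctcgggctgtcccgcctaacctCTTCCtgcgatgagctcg
COPS7B outer start (chr2:231781529-231781689, plus strand): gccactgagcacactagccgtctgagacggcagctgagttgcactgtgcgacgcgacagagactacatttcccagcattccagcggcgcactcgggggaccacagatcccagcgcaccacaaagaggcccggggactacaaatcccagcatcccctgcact
COPS7B inner start (chr2:231786296-231786456, plus strand): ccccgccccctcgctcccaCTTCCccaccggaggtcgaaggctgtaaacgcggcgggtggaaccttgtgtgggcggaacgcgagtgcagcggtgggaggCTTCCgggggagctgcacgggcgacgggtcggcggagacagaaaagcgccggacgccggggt

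COPS2 held no CCGGAAG and 1 GGAAG in its stretch, and the COPS3 stretch held 1 GGAAG. The UBE2F stretch held neither, and the CCGGAAG copy of its window begins 1 base after the start on the opposite strand, outside the stretch. In UBE2V1 the CCGGAAG copy of its window lay 148 bases before the start, away from the summit. At COPS7B the outer stretch held no GGAAG, and the inner stretch, whose peak was the stronger in both controls, held CCGGAAG on the opposite strand 50 bases before the inner start. The motif was also found where no peak was listed within reach, in windows of CUL9, UBE2E3 and the outer start of CUL4B, which are 3 of the 29 unmarked members with a window (10.3% at the outermost start, beside 5.50% of all genes with no peak in any list). A match of letters is a description of the window and not a measured site.

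Which members had a peak in the B1 knockout went with their strength in the controls. All 15 parental members were also marked in ROSA26, as were 3063 of the 3091 genes marked in the parental list. Of the 15 members, 9 were marked in the B1 knockout (60%, 32.3 to 83.7), beside 60.4% of the 3063 genes marked in both controls. The share is near that of all genes. The 9 were COPS2, COPS3, COPS7A, COPS9, CUL4A, UBE2G2, UBE2J2, UBE2M and UBE2N, with parental folds of 5.90 to 14.6 and a median of 8.52. The 6 without a B1 knockout peak were COPS5, COPS7B at its outer start, CUL2, CUL7, UBE2F and UBE2V1, with parental folds of 3.33 to 7.74 and a median of 4.01. The medians over all genes were 9.38 for those with and 4.31 for those without a B1 knockout peak.

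Genes marked in both controls were split by parental fold into 4 bins of 765 or 766 genes. From the weakest bin to the strongest, a B1 knockout peak was listed for 8.36% (6.49 to 10.5), 48.3% (44.7 to 51.9), 87.3% (84.8 to 89.6) and 97.8% (96.5 to 98.7) of them. The members with a B1 knockout peak were 0 of 4, 1 of 2, 5 of 6 and 3 of 3 in these bins. CUL7, with a parental fold of 7.74, was the member of the third bin without one. Its ROSA26 fold of 5.57 lay below the median of that list, 6.02, as did those of COPS7B, UBE2V1 and UBE2F. COPS5 (6.77) and CUL2 (6.28) lay above that median and also had no B1 knockout peak. In ROSA26 the 6 members without a B1 knockout peak had folds of 4.01 to 6.77, and the 9 with one 7.56 to 17.1. Over all genes marked in both controls these ROSA26 ranges overlapped (2.15 to 16.2 without, 2.90 to 26.4 with).

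**Figure D4:**
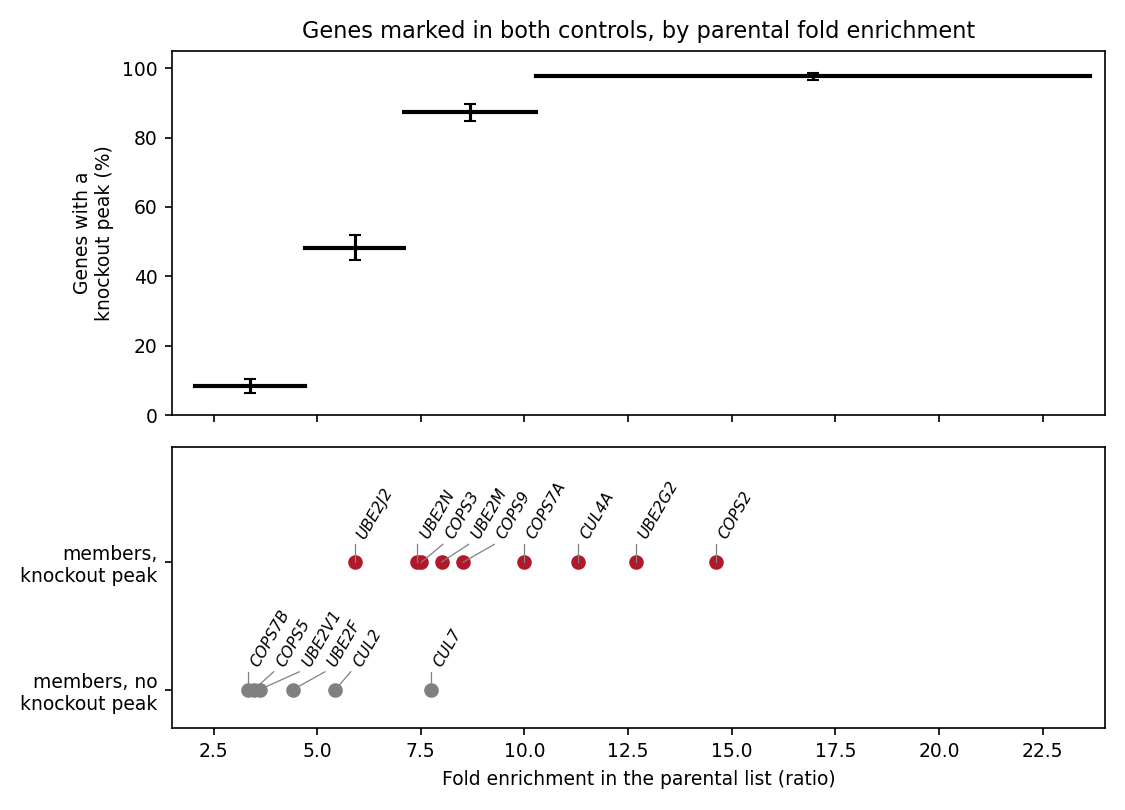
Top, share of all genes marked in both controls that had a B1 knockout peak (%, y axis), in 4 bins of parental fold enrichment (x axis, ratio). Horizontal lines span the bin and error bars give the exact 95% interval. Bottom, parental fold of the 15 members marked in both controls, with a B1 knockout peak (upper row) or without (lower row). The members without one lie at 3.33 to 7.74 and those with one at 5.90 to 14.6.

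At equal list length the conditions held the same number of members. With the strongest 1660 peaks of each list by −log10 p, 9 members were marked in the B1 knockout, 9 in ROSA26 and 9 in the parental cells, beside 9.32, 9.46 and 9.50% of all genes. The B1 knockout and ROSA26 sets were then the same 9 genes. The parental set held CUL7 in place of UBE2J2, so 8 members were marked in both controls. All 8 were also marked in the B1 knockout, beside 89.0% of all genes marked in both controls at that length. Peaks with the parental folds of the 6 genes were placed on the most common background of the B1 knockout library, 9.86 reads. There they would have a −log10 p of 9.10 (COPS7B) to 44.1 (CUL7). The lowest value in the B1 knockout list was 4.74, its 10th percentile 13.6 and its median 34.2. At that single background, CUL7 alone among the 6 would stand above that median by its parental fold. By ROSA26 fold COPS5 alone would (35.1). Local backgrounds in the controls were higher at UBE2V1 (37.6 reads in ROSA26, 36.5 in parental) and at COPS5 (30.2 in parental). At the same fold a higher background gives a larger −log10 p, so the values of such genes may be too low.

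Among the 1628 parental peaks that were listed in all 3 libraries, the members with a B1 knockout peak held different places when ranked by fold, 1 being the strongest. COPS2 was 15th in the B1 knockout, 166th in ROSA26 and 140th in the parental cells, and UBE2G2 was 50th, 128th and 310th. COPS3 stood at 525, 1180 and 1136, which is 611 places above both controls, and 20 of the 1628 peaks (1.23%) stood as far above both. COPS7A stood at 1575, 1078 and 671, which is 497 places below both controls, and 76 peaks (4.67%) stood as far below both. COPS3 and COPS7A were singled out after their values were seen. The controls differed from each other by a median of 147 places, and by 472 places at CUL4A (260, 938 and 466), 433 at UBE2N (1349, 719 and 1152) and 407 at COPS7A itself. UBE2M stood at 720, 1314 and 1048, UBE2J2 at 1059, 1309 and 1402, and COPS9 at 870, 805 and 930.

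The number of CCGGAAG copies also went with a B1 knockout peak over all genes. Of genes marked in both controls whose window held the parental summit, 52.8% (49.0 to 56.5) of the 709 with no copy, 63.6% (60.4 to 66.6) of the 969 with 1 copy and 84.4% (80.4 to 87.9) of the 385 with 2 or more had a B1 knockout peak. The median parental folds of these classes were 5.86, 7.43 and 10.5, so copies and strength moved together, and their parts were not tested. Among the members, 2 of 3, 4 of 6 and 2 of 2 had a B1 knockout peak. Within 80 bases of the parental summit CCGGAAG was found in 6 of the 8 members with such a window and a B1 knockout peak (75%, 34.9 to 96.8). It was in none of the 3 with such a window and no B1 knockout peak (0 to 70.8%), namely UBE2F, UBE2V1 and COPS7B. Over all such genes it was in 65.8% (63.1 to 68.3) and 49.3% (45.7 to 53.0). COPS5 and CUL7, also without a B1 knockout peak, had no window and were not counted. For CUL2, which has no window of its own at the peak, the window of CREM held CCGGAAG within 80 bases of the summit, and CUL2 had no B1 knockout peak.

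Partners of these enzymes were also looked up. Of 49 partner genes, 13 were marked in the B1 knockout (26.5%, 14.9 to 41.1), 16 in ROSA26 (32.7%, 19.9 to 47.5) and 15 in the parental cells (30.6%, 18.3 to 45.4), beside 9.32, 18.5 and 15.5% of all genes. Of the 15 marked in both controls 13 had a B1 knockout peak (86.7%, 59.5 to 98.3), beside 60.4% of all genes marked in both controls. The 60.4% is not matched for strength, and the share over all genes ran from 8.36 to 97.8% across the bins of parental fold. Parental folds of the 13 were 4.90 (GPS1) to 11.2 (TSG101), and those of the other 2 were 3.77 and 3.34. TSG101, an inactive E2 relative of endosomal sorting, had folds of 9.61, 14.6 and 11.2 in the B1 knockout, ROSA26 and parental lists. UBA2, a subunit of the SUMO E1, had folds of 4.94, 7.76 and 10.3, and NEDD8 itself 7.16, 11.0 and 9.61, with the NEDD8 peak shared with GMPR2 and NEDD8-MDP1. The 2 without a B1 knockout peak were the F-box genes FBXW7 (folds 4.80 and 3.77 in ROSA26 and parental) and SKP2 (3.82 and 3.34). LMBRD2 shared the SKP2 peak. Of 26 cullin ligase partners 4, 7 and 6 were marked, and of 17 genes for E1 enzymes, ubiquitin, NEDD8 and SUMO 5, 5 and 5.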

How the data were processed

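GABPA ChIP-seq peak lists of 3 A-375 libraries were analysed. Per the submitters' processing notes, Bowtie2, SAMtools and MACS2 were used with hg38; their versions, thresholds and use of the input are not stated in these sources. Each ChIP sample has its own list, so peaks were called per sample. The deposited lists give for each peak the fold enrichment (a ratio to local background), the −log10 of its p-value and q-value, and a score. The score was not used. Summits were read as peak start plus the deposited offset and written 1-based.

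Gene spans and promoter windows came from RefSeq tables of GRCh38.p14, whose primary coordinates are those of hg38. Where several peaks were in reach of a gene, that with the highest −log10 p was taken. Summit reads were recovered by inverting the formulas of MACS2 for fold and p, with 1 scale factor per library (0.924 B1 knockout, 1 ROSA26, 0.860 parental). Every peak was solved to within 0.01 of its deposited −log10 p, and the solver was tested on simulated data. Intervals are exact Clopper-Pearson at 95% over genes and cover counting error only. Python 3.11.15, pandas 2.3.3 and scipy 1.17.1 were used.

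The members, gene lists, comparisons and alternatives were chosen with earlier results of these data known. The inputs were not analysed here. Every member with a peak is named, with the fullest account of the 5 strongest by parental fold, of those in both controls without a B1 knockout peak and of those in 1 list. For partner genes the 3 strongest by parental fold with and without a B1 knockout peak are named.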

Additional observations from a re-analysis of the deposited data

How the results depend on the processing

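Of 82 recomputed counts, 73 stayed within 1.5 times the reported count. With lists of equal length the counts fell to 9 members in ROSA26, 9 in the parental cells and 8 in both controls, to 4 UBE2, 1 CUL and 4 COPS genes in ROSA26 and to 3 UBE2 genes in the parental list, since only the strongest peaks remain. With a reach of 500 bp 0 CUL genes were marked in the B1 knockout, since the CUL4A summit lies further in. With CCGGAAGT 4 marked member promoters held the motif, since it is a subset of CCGGAAG. The share of members in both controls with a B1 knockout peak ran from 53.8 to 69.2% under the settings other than equal length. Over all genes marked in both controls it ran from 57.9 to 61.0%. A −log10 q of at least 10 removed COPS7A from the B1 knockout and COPS7B from the parental list. Counting each summit for its nearest gene end only, COPS2, CUL4A, CUL2 and UBE2M were not marked. Summits at RefSeq starts as well as span ends, chosen after seeing the data, added CUL4B and UBE2D3 in the controls and COPS7B in the B1 knockout. No paired analysis was possible because each condition has 1 ChIP library. Summits of marked members held 47 to 248 reads in the B1 knockout, 60 to 386 in ROSA26 and 54 to 356 in the parental library, which limits what can be said of the weakest peaks.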
